A study of Mus musculus with 29 samples.

Results

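The tumours described here are the primary abdominal neuroblastomas whose title code carries a number of 100 or above, compared by caspase-8 genotype. They are 14 of the 29 samples of the series. All came from TH-MYCN mice of strain 129X1/SvJ, in which a transgene expresses MYCN from a tyrosine hydroxylase promoter in cells of the sympathoadrenal lineage. The 4 tumours labelled wild type caspase-8 carry the codes ttt108, ttt109a, ttt110 and ttt111 and are called wild type tumours 1 to 4. The 10 labelled deficient caspase-8 carry the codes ttt100, ttt101, ttt102, ttt104, ttt105, ttt106, ttt107, ttt115, ttt116 and ttt117 and are called deficient tumours 1 to 10. Which exons are missing, in which tissues, the animals' age and sex, and whether every tumour had its own animal are not stated in the labels, so the errors measure the spread between these samples. Each SD below is over 4 wild type or 10 deficient tumours. RNA of each tumour was hybridised to 1 Affymetrix mouse 3′ expression array, and a level is the log2 signal of the authors' RMA table. For 18193 genes the fit gave the log2 difference of deficient minus wild type, where 1 is a 2-fold change. The other 10 tumours of the series carry numbers below 100 (3 wild type, 7 deficient) and are set beside these where both were measured.

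Neuroblastoma arises from the sympathoadrenal lineage of the neural crest and keeps much of its gene expression, including the enzymes and vesicles that make and store catecholamines. Caspase-8 is the initiator protease that death receptors recruit through the adaptor FADD; it starts apoptosis and restrains necroptosis. Solid tumours also hold vessels, fibroblasts and immune cells, and regions far from a vessel run a hypoxia programme in which the factor HIF binds short promoter and enhancer elements of genes for glycolysis, prolyl hydroxylases and angiogenic ligands.

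Several arrays stood apart before any comparison. Wild type tumour 2 had the lowest mean signal of the endothelial list among all 14 tumours, at 4.93 against 5.66 to 5.80 in the other wild type tumours, and the highest mean of the MHC class I list, at 8.92 against 6.29 to 6.49. Skeletal muscle genes averaged 7.26 in wild type tumour 4 and 9.26 in deficient tumour 4, and no more than 5.12 in any other tumour. The array's own control probe sets for Gapdh and beta-actin, whose 3′ signal exceeds the 5′ signal when RNA or its copies are short, differed by 0.53 on average in the wild type group (SD 0.08) and by 0.80 in the deficient group (SD 0.20). An exact permutation test over the 1001 splits of the tumours gave a two-sided p of 0.0270. As a check of the label, 18 measured neuronal differentiation genes averaged 10.13 (SD 0.09) in wild type and 10.07 (SD 0.10) in deficient tumours, where the same genes averaged 3.94 in bone marrow of the series. Xist signal was above 8 in 2 of 4 wild type and 7 of 10 deficient tumours, with signal of 3 Y-linked genes in the others, so the sexes were not balanced. With Xist as covariate the endothelial median was 0.58 against 0.56, the median of MHC class I and antigen processing genes -0.19 against -0.39 and that of catecholamine genes -0.21 against -0.09. Correlations between the 14 arrays over probe sets were 0.977 to 0.993.

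Casp8, the targeted gene, was measured by 1 probe set. Its signal was 5.91, 6.31, 5.65 and 5.55 in wild type tumours 1 to 4 and ran from 4.68 through a median of 5.83 to 6.41 in the deficient tumours. The 4 wild type tumours all lay inside the range of the deficient tumours, and the difference was -0.15 (SE 0.24, exact permutation test, two-sided, p = 0.585). It shrank to -2.43e-05 without wild type tumour 2 and was -0.04 without deficient tumour 2. Bone marrow of the same series, 5 samples of both genotypes pooled, averaged 9.27 for this probe set, so that level is not a wild type reference. Where this probe set lies relative to the deleted part was not analysed here, so its level does not check the genotype. Lancl1, a LanC-like gene on the same chromosome as Casp8 whose product binds glutathione, separated the groups by one of its 2 probe sets. The probe set of lower signal read 6.49, 6.52, 7.03 and 6.55 in wild type tumours 1 to 4 and 5.19 to 6.04 (median 5.51) in the deficient tumours. Its difference of -1.07 (SE 0.15) had the lowest adjusted p of all 45037 probe sets in limma, 0.0867, which did not pass 0.05. In the tumours numbered below 100 it was -0.995, and the other Lancl1 probe set differed by 0.14 (SE 0.12) in the opposite direction.

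No gene passed limma's adjusted p of 0.05, so all differences below are values and not calls. The lowest adjusted p was 0.621 and 0% of genes were called. Of the 18193 genes, 1381 (7.59%) reached an unadjusted p under 0.05, against 909.7 at a rate of 1 in 20. With the array control signal, which differed between the groups, as covariate, 906 genes (4.98%) did. Of the 1381 genes, 892 (4.9% of all genes) were higher and 489 (2.69%) lower in deficient tumours. That split follows the scaling: it was 664 higher and 657 lower after quantile normalization of the 14 arrays, and 424 higher and 956 lower with each array centred on its median. Of all genes, 10008 (55%) had a difference above 0 and 8185 (45%) below, and the median difference was 0.016. Groups did not overlap for 48 genes (0.264%), 33 of them (0.181%) higher and 15 (0.0824%) lower in deficient tumours. Random labels separate a gene fully in a given direction in 1 of the 1001 splits, a rate of 0.000999. Lack of overlap is therefore given below as a description of a gene. Over all genes, dim ones included, the 95% interval reached a median of 0.24 to either side, and for 95.7% it excluded a 2-fold change. Some genes named below had much wider intervals, such as -2.99 to -0.86 for Npy and 0.87 to 3.27 for Aplnr.

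**Figure D1:**
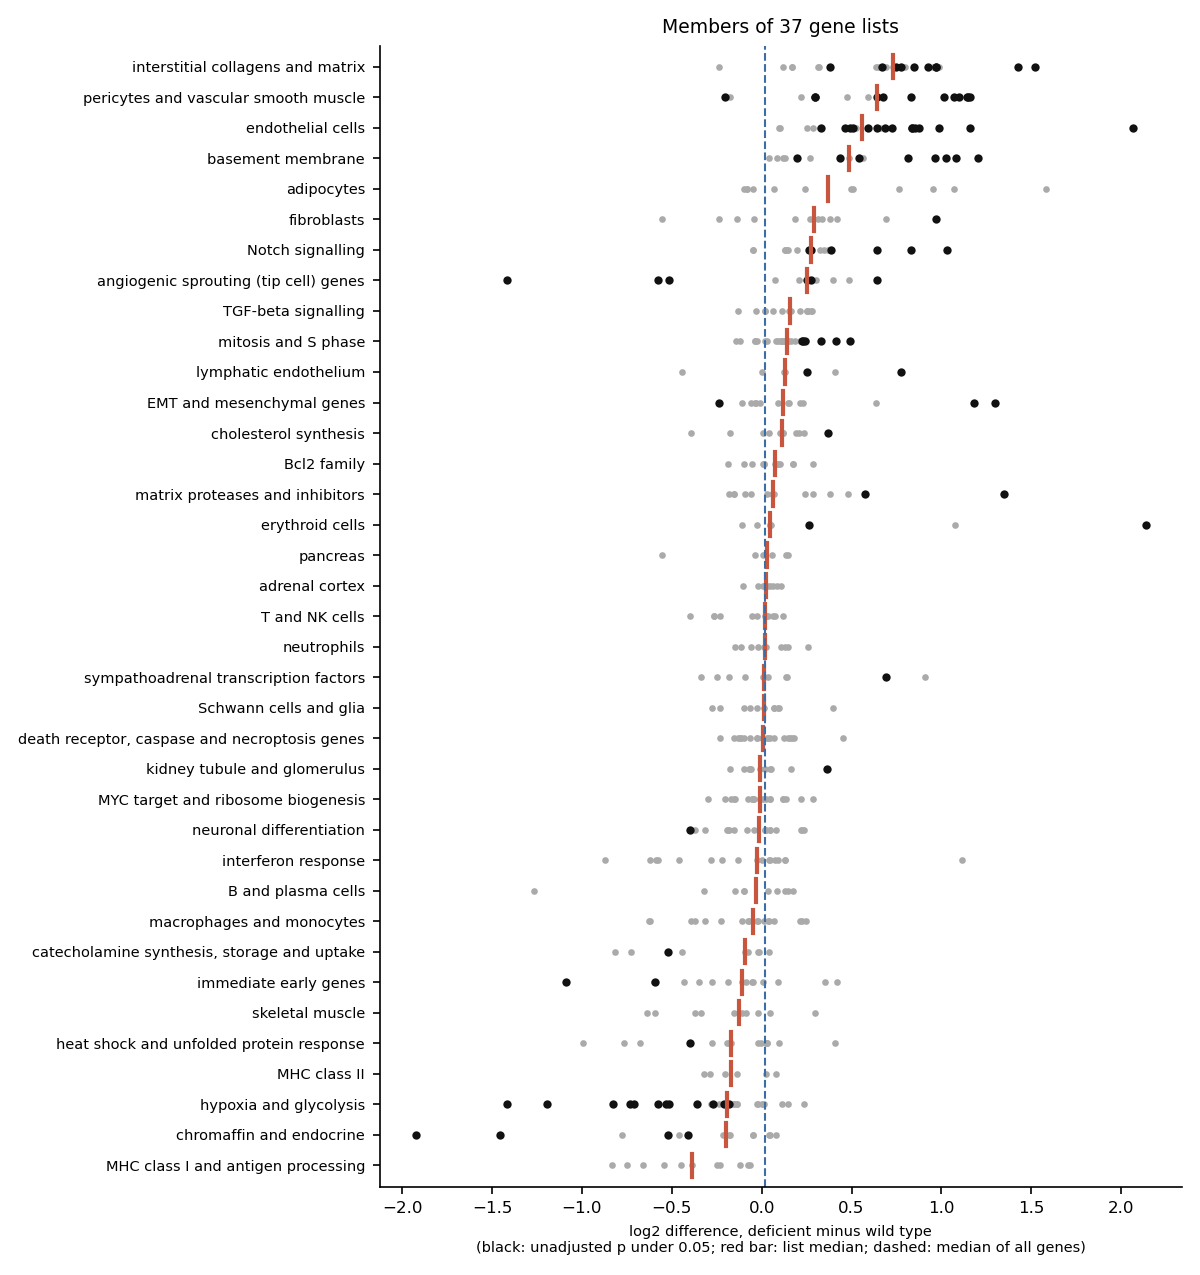
Log2 difference of deficient minus wild type (x axis) for every measured member of 37 gene lists (rows), with members at an unadjusted p under 0.05 in black, list medians as red bars and the median of all genes, 0.016, as a dashed line. Matrix, pericyte and endothelial lists lie to the right with medians of 0.73, 0.64 and 0.56. The MHC class I list lies furthest to the left with -0.39, followed by the chromaffin and hypoxia lists with -0.20 and -0.19.

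Genes of the hypoxia response and glycolysis were lower in deficient tumours. Of 31 measured members of 32 listed, 25 were lower and 6 higher, with a median difference of -0.19. An unadjusted p under 0.05 was reached by 12 members, all of them lower, where 2.69% of all genes were. Lists were chosen with earlier results of these data known. The counts of this and later lists beside the share of all genes are therefore descriptions and not tests. The mean signal of the list was 8.27, 8.5, 8.58 and 8.13 in wild type tumours 1 to 4 and 7.94 to 8.22 (median 8.07) in deficient tumours. Only wild type tumour 4 lay inside the range of the deficient group. The median kept its sign with each tumour left out in turn, from -0.27 to -0.14, and the count fell to 7 members without wild type tumour 2 or 3. With the array control signal as covariate it was -0.21, with 8 members under 0.05. In the tumours numbered below 100, the median was 0.06.

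P4ha1 and Ankrd37 had the smallest p of the list. P4ha1, a subunit of the prolyl hydroxylase that matures collagen, read 7.70, 8.0, 7.60 and 7.65 in wild type tumours 1 to 4 and 7.01 to 7.43 (median 7.22) in deficient tumours. Every deficient tumour lay below every wild type tumour, and the difference was -0.53 (SE 0.09). Ankrd37, an ankyrin repeat gene induced by hypoxia, read 6.24, 7.11, 6.94 and 6.53 against 5.54 to 6.39 (median 5.82), a difference of -0.83 (SE 0.16). Only deficient tumour 2 reached above wild type tumour 1. Pgam1, a glycolytic mutase, read 10.26, 10.16, 10.06 and 10.10 in wild type tumours 1 to 4 and 9.72 to 9.98 (median 9.86) in deficient tumours. These groups did not overlap, and the difference was -0.27 (SE 0.07). The promoters of 4 members follow, to show where the core of the HIF element falls in genes of this list. Each is the 250 bases before the RefSeq gene start (GRCm38.p6), 5′ to 3′ on the gene's strand, with ACGTG or its reverse complement in capitals.
P4ha1, chr10:59323046-59323295 (+): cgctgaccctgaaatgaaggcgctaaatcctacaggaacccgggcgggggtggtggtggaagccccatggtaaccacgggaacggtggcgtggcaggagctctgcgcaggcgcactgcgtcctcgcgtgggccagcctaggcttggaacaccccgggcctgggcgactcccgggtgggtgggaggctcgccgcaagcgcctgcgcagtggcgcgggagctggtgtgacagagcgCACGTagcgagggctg
Ankrd37, chr8:45999851-46000100 (-): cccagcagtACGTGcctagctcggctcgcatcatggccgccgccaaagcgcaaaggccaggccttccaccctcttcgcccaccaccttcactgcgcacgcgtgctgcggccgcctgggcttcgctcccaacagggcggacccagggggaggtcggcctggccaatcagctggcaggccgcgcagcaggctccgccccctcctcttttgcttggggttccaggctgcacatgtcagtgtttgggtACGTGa
Bnip3, chr7:138909507-138909756 (-): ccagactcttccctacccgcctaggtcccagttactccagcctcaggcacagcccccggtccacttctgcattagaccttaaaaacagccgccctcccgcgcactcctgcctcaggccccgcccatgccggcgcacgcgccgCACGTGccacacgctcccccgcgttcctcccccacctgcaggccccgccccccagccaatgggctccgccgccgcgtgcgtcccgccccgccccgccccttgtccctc
Adm, chr7:110627407-110627656 (+): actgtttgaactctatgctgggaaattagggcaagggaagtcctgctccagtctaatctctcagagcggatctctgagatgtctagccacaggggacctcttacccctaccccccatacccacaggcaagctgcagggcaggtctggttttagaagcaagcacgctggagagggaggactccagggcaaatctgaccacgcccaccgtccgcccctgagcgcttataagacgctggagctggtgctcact
The letters occurred 1 time before P4ha1, 2 times before Ankrd37 and 2 times, overlapping, before Bnip3, and not in this window of Adm. Among the 29 list members with a window, 19 (65.5%) held the motif on either strand, against 3245 of 14452 measured genes (22.5%) and 3537 of 18109 windows (19.5%). Within the list the median difference was -0.19 for the 19 genes with it and -0.18 for the 10 without it. A match is a description of letters and not a binding site.

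Secreted and mitochondrial products of the same programme are described next. Adm, which encodes the vasodilator peptide adrenomedullin, read 8.14, 9.12, 9.32 and 8.69 in wild type tumours 1 to 4 and 6.73 to 8.77 (median 7.33) in deficient tumours. Deficient tumour 10 was the only one inside the wild type range, and the difference was -1.42 (SE 0.31). Bnip3, a mitophagy receptor, Egln3, the oxygen-sensing prolyl hydroxylase, Pdk1, which limits pyruvate entry into mitochondria, and Slc2a1, the glucose transporter, are named after their values were seen. Their differences were -0.73 (SE 0.21), -1.20 (SE 0.36), -0.71 (SE 0.27) and -0.58 (SE 0.23). Deficient and wild type tumours overlapped in each, and leaving out wild type tumour 3 gave -0.47 for Bnip3, leaving out wild type tumour 2 gave -0.31 for Slc2a1. Vegfa, the main ligand of the endothelial receptor Kdr, read 7.39, 7.82, 7.64 and 7.40 against 6.56 to 7.84 (median 7.09). Its difference was -0.52 (SE 0.18), with deficient tumour 7 above all wild type tumours, and it was -0.28 over the mean of its probe sets and -0.34 with the control signal as covariate. Pgf, a related ligand, differed by -0.58 (SE 0.18). Glycolytic enzymes with smaller differences, chosen after their values were seen, were Ldha at -0.15 (SE 0.08), Pkm at 0.01 (SE 0.13) and Hk1 at 0.00 (SE 0.12).

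**Figure D2:**
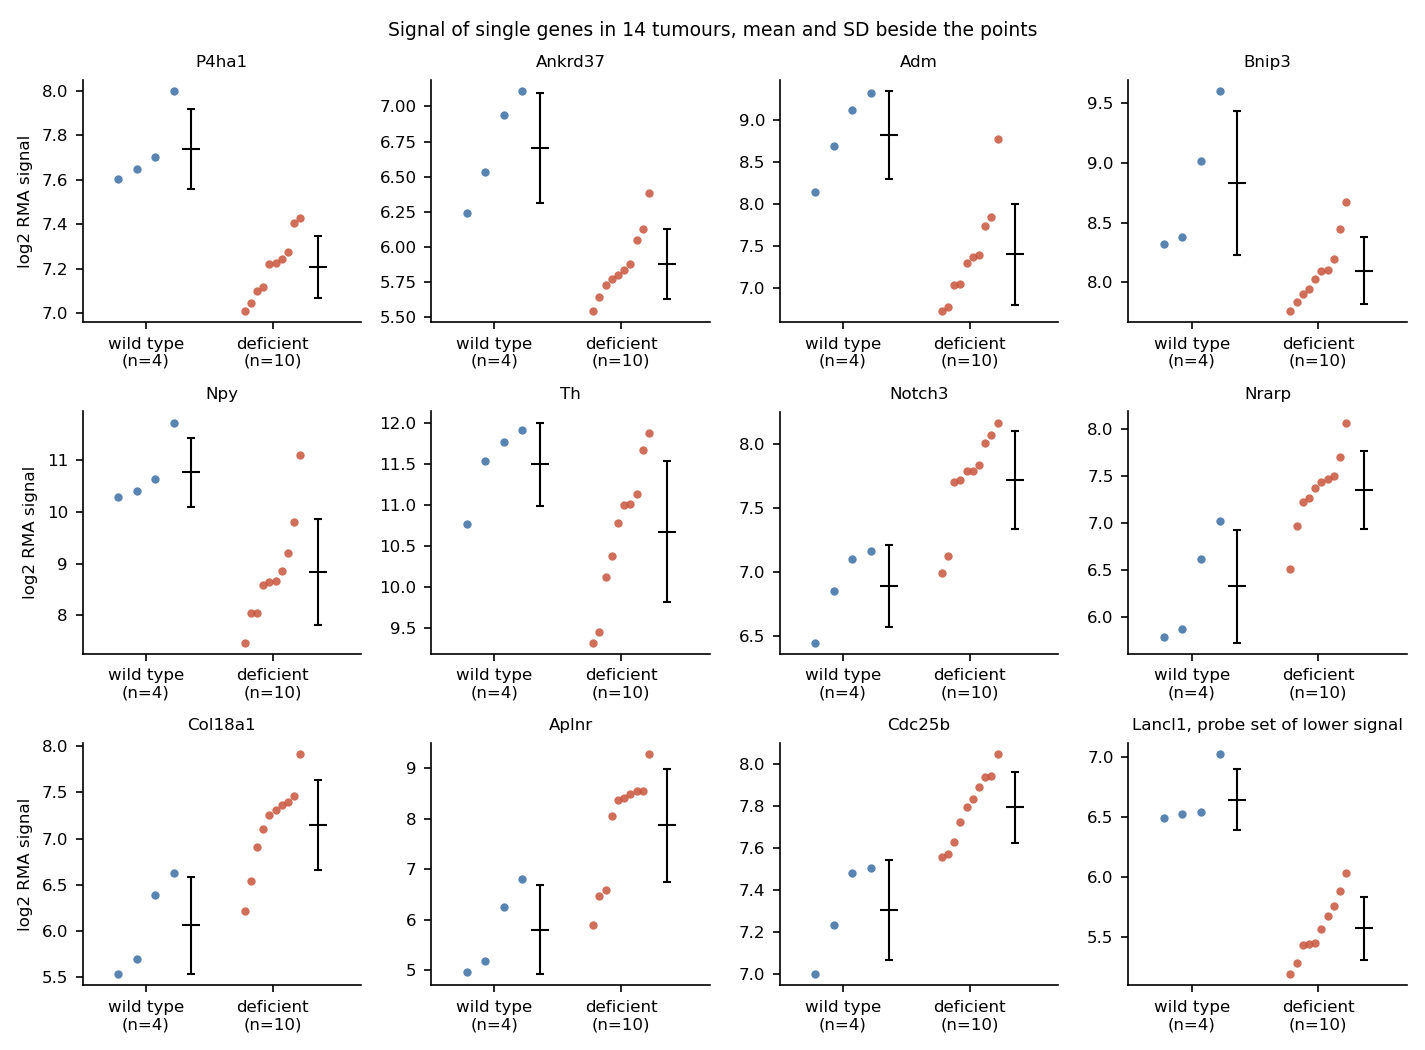
Log2 signal (y axis) of 11 genes and 1 probe set in each tumour, wild type in blue (n = 4) and deficient in red (n = 10), points in order of value with mean and SD beside them. P4ha1 and the Lancl1 probe set of lower signal are split without overlap (differences -0.53 and -1.07), as is Cdc25b (0.49), while Th overlaps widely.

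Genes of the vessel wall had higher signal in deficient than in wild type tumours here. The endothelial and pericyte means of these wild type tumours were also below those of both genotypes numbered below 100. In bulk RNA more vessel cells and more RNA per cell cannot be told apart. All 24 endothelial genes had a difference above 0, with a median of 0.56, and 15 had an unadjusted p under 0.05, where 4.9% of all genes were higher at that level. The list mean was 5.78, 4.93, 5.80 and 5.66 in wild type tumours 1 to 4 and 5.38 to 6.75 in deficient tumours. Deficient tumours 2 and 10, at 5.38 and 5.77, were not above the highest wild type tumour, and the other 8 were. Much of the count rests on 1 array: without wild type tumour 2 the median was 0.33 with 3 genes under 0.05. It was 0.46 with 4 genes when the array control signal, which also differed between the groups, was a covariate. Aplnr, the apelin receptor of growing vessels, read 6.25, 5.17, 4.96 and 6.81 in wild type tumours 1 to 4 and 5.89 to 9.28 (median 8.39) in deficient tumours. Its difference of 2.07 (SE 0.56) stayed between 1.79 and 2.41 with each tumour left out, and deficient tumours 2, 7 and 10 lay inside the wild type range. Ptprb, the endothelial phosphatase that acts on the angiopoietin receptor, differed by 1.16 (SE 0.35), by 0.69 without wild type tumour 2 and by 0.65 over the mean of its probe sets. Kdr, the main VEGF receptor, differed by 0.64 (SE 0.22), and by 0.32 without that tumour. Mmrn2, a matrix protein of the endothelium, differed by 0.99 (SE 0.35), and by 0.59 without it. Ramp2, which pairs with a receptor for adrenomedullin and is named after its values were seen, averaged 5.28 (SD 0.29) in wild type and 5.97 (SD 0.38) in deficient tumours. It differed by 0.69 (SE 0.20), opposite in direction to its ligand Adm. Of 12 genes listed for sprouting vessels and their tip cells, which include Kdr, 9 were higher and 3 lower, with 3 under 0.05 in each direction. The 3 lower ones were Adm, Vegfa and Pgf, which encode secreted ligands, and Adm and Vegfa are also on the hypoxia list. Without wild type tumour 2, 7 of the 12 were higher with 0 under 0.05, and 5 were lower with 3 under 0.05.

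Pericyte and smooth muscle genes, of the cells that wrap vessels, followed the same direction. Of 17 measured, 15 were higher, 11 of them with an unadjusted p under 0.05, and the median was 0.64. List means were 6.55, 5.55, 6.40 and 6.48 in wild type tumours 1 to 4 and 6.25 to 7.35 (median 6.94) in deficient tumours. Again deficient tumours 2 and 10 lay among the wild type tumours, and without wild type tumour 2 the median was 0.47 with 6 genes under 0.05. With the control signal as covariate it was 0.60 with 7 genes under 0.05, and without deficient tumours 1 to 7 it was 0.69 with 3. Pdgfrb, the PDGF receptor of pericytes, read 7.83, 6.50, 7.89 and 7.66 in wild type tumours 1 to 4 and 7.53 to 9.23 (median 8.57) in deficient tumours. All but 1 deficient tumour exceeded every wild type tumour, and the difference of 1.10 (SE 0.30) was 0.78 without wild type tumour 2. Rgs5, a regulator of G-protein signalling typical of pericytes, differed by 1.15 (SE 0.33) and by 0.66 without that tumour. Mcam, a vascular adhesion molecule, differed by 0.68 (SE 0.21). One member went the other way at this level: Ndufa4l2, a mitochondrial protein of pericytes that hypoxia also induces, chosen after its values were seen, differed by -0.20 (SE 0.09).

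Matrix genes were higher as well. The 15 basement membrane genes all had a difference above 0, with a median of 0.49 and 8 under 0.05. This count was 3 without wild type tumour 2 and 2 with the control signal as covariate. Col18a1, the collagen that yields endostatin, read 6.39, 5.54, 5.70 and 6.63 in wild type tumours 1 to 4 and 6.21 to 7.91 (median 7.28) in deficient tumours. All deficient tumours except 2 and 10 exceeded the highest wild type tumour, and the difference was 1.08 (SE 0.27). Col4a1 and Col4a2, the chains of the main collagen IV network, differed by 1.21 (SE 0.37) and 0.96 (SE 0.34), and by 0.77 and 0.54 without wild type tumour 2, their lowest sample. Nid1, which links laminin and collagen IV, differed by 1.03 (SE 0.38), by 0.65 without that tumour and by 0.49 over the mean of its probe sets. Of 23 interstitial collagen and matrix genes, 22 were higher, with a median of 0.73 and 10 under 0.05. The interstitial list mean ran from 6.48 to 7.34 in wild type and from 6.37 to 8.71 in deficient tumours, with deficient tumour 10 lowest and deficient tumour 9 highest of all 14. Its count was 4 without wild type tumour 2 and 0 when deficient tumours 1 to 7 were left out, with medians of 0.63 and 0.79. With the control signal as covariate the interstitial median was 0.88, with 9 genes under 0.05. Col14a1, a collagen of fibril surfaces, differed by 1.52 (SE 0.48), and by 0.81 over the mean of its probe sets. Bgn, a small proteoglycan, and Mgp, an inhibitor of calcification, differed by 0.85 (SE 0.29) and 0.93 (SE 0.32). Eln, the elastin gene, differed by 0.38 (SE 0.12). Fbln5, a fibulin of elastic fibres that is on no list, did not overlap between groups, at 5.08, 4.40, 5.40 and 5.22 in wild type tumours 1 to 4 and 5.51 to 7.23 (median 5.97) in deficient tumours. Its difference was 1.03 (SE 0.28), and 0.68 over the mean of its probe sets. The marker list of fibroblasts, the main source of interstitial matrix, differed less, with 8 of 12 genes higher, a median of 0.29 and 1 gene under 0.05, or a median of 0.15 without wild type tumour 2 or without deficient tumour 9. The part of these cells in the matrix values was not tested. In a comparison added after the data were seen, which left out wild type tumour 2 and deficient tumours 3 and 6 (the highest in control signal), the medians were 0.29 for endothelial, 0.53 for pericyte, 0.33 for basement membrane and 0.56 for interstitial genes, with 3, 4, 2 and 0 genes under 0.05. The hypoxia median was then -0.15 with 6 genes.

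**Figure D3:**
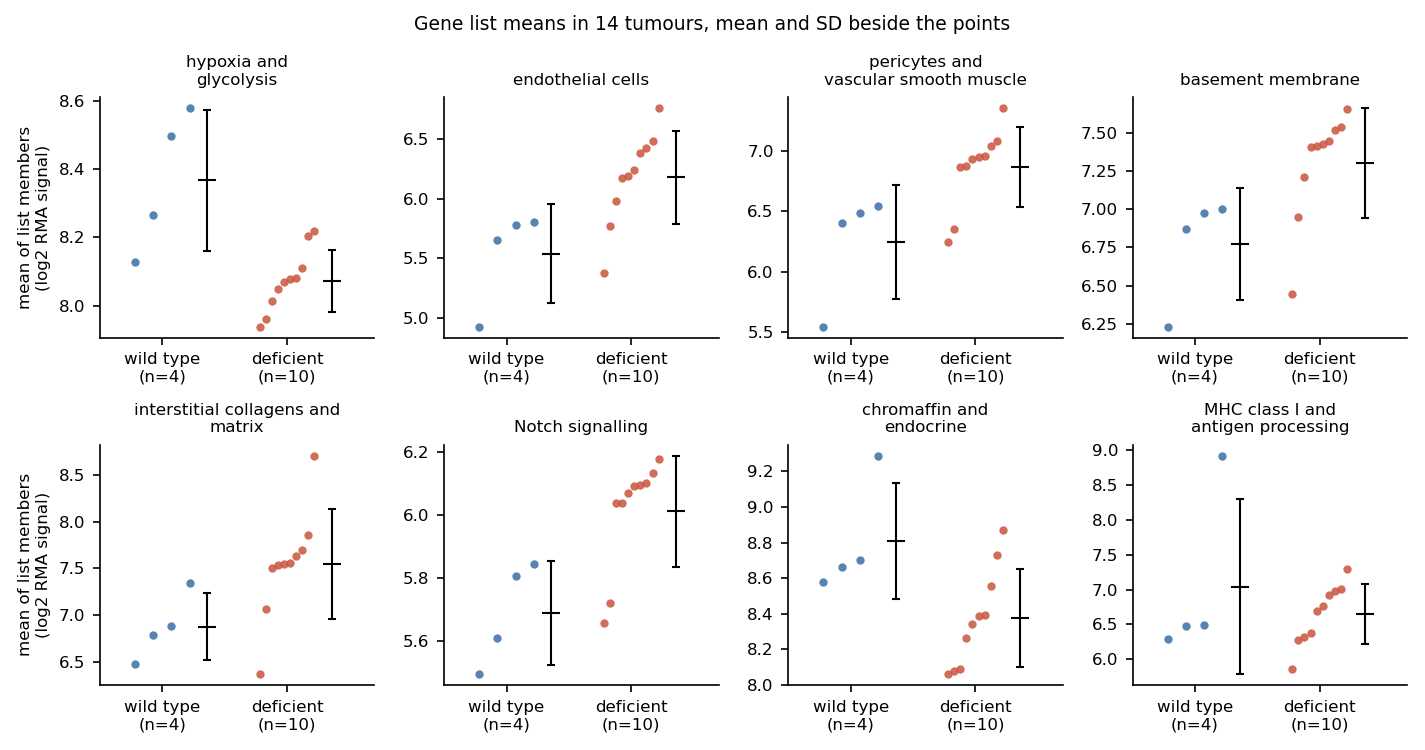
Mean log2 signal of the measured members of 8 gene lists (y axis) in each tumour, wild type in blue (n = 4) and deficient in red (n = 10), points in order of value with mean and SD beside them. The lowest wild type point of the endothelial, pericyte and basement membrane panels and the highest of the MHC class I panel (8.92) are wild type tumour 2.

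Notch pathway genes, which relay contact between neighbouring cells and act in pericytes and sprouting vessels, were mostly higher. Of 17 measured, 15 were higher, with a median of 0.27 that stayed between 0.21 and 0.31 with each tumour left out, and 6 were under 0.05. In the tumours numbered below 100 the median was 0.01, with 10 of 17 higher. Notch3 and Heyl, both among those under 0.05 here, are also members of the pericyte list, so the 2 lists are not separate. Among receptors, Notch3, the receptor of pericytes and smooth muscle, read 7.16, 6.45, 6.85 and 7.10 in wild type tumours 1 to 4 and 6.99 to 8.17 (median 7.79) in deficient tumours. All deficient tumours except 2 and 10 exceeded every wild type tumour, and the difference was 0.83 (SE 0.20). Notch1 differed by 0.37 (SE 0.20) and Notch2 by -0.05 (SE 0.23). Of the ligands, Jag2 differed by 0.26 (SE 0.12), and by 0.12 without wild type tumour 3. Among targets, Nrarp, a feedback inhibitor of the pathway, read 6.62, 5.78, 5.87 and 7.02 against 6.51 to 8.07 (median 7.40). Its difference was 1.03 (SE 0.25), and 0.59 over the mean of its probe sets. Heyl and Hes1, both Notch target repressors, had levels under the floor for named genes and were chosen after their values were seen. Heyl read 4.64, 4.38, 4.29 and 4.47 in wild type tumours 1 to 4 and 4.74 to 5.63 (median 5.05) in deficient tumours, without overlap, and differed by 0.64 (SE 0.14). Hes1 differed by 0.39 (SE 0.14), and by 0.25 without wild type tumour 2. The core of the element bound by the Notch partner RBPJ, TGGGAA on either strand, occurred in 3 of 14 list promoters (21.4%) and 3496 of 14452 genes (24.2%).

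Neuroendocrine products were lower in deficient tumours. Of 14 chromaffin and endocrine genes, 11 were lower, with a median of -0.20 and 4 under 0.05. That median was -0.10 with 1 gene under 0.05 without wild type tumour 3 and -0.25 with 0 genes under 0.05 without deficient tumours 1 to 7. Leaving out wild type tumour 2 gave -0.31. With the control signal as covariate 2 of these genes were under 0.05, as they were without deficient tumours 3 and 6. Npy, the neuropeptide that sympathetic neurons release with noradrenaline, read 10.63, 10.40, 11.73 and 10.29 in wild type tumours 1 to 4 and 7.47 to 11.09 (median 8.65) in deficient tumours. Deficient tumour 10 alone lay inside the wild type range. The difference of -1.92 (SE 0.50) ran from -2.17 to -1.60 with each tumour left out. Scg2, a granin of dense-core vesicles, read 6.05, 6.85, 8.41 and 8.18 against 4.80 to 7.98 (median 5.59), a difference of -1.46 (SE 0.58). Deficient tumours 2, 7 and 10 lay inside the wild type range. Scg5, a chaperone of prohormone convertase, differed by -0.41 (SE 0.16). Nts and Tac1, which encode the peptide neurotensin and substance P, were chosen after their values were seen because their levels are low. Nts read 5.51, 6.63, 6.24 and 4.96 in wild type tumours 1 to 4 and 3.68 to 5.56 (median 4.07) in deficient tumours, a difference of -1.60 (SE 0.34). Tac1 differed by -0.75 (SE 0.18), and by -0.34 over the mean of its probe sets. Chgb, the granin of highest signal, was at 12.66 and 12.49, a difference of -0.18 (SE 0.13).

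Of 9 catecholamine genes 8 were lower, with a median of -0.09 and 1 under 0.05. Leaving out 1 wild type tumour moved the median to -0.28 (tumour 2), -0.24 (tumour 4) or -0.05 (tumour 1), and leaving out 1 deficient tumour moved it to -0.22 (tumour 2) or -0.06 (tumour 4). Over the mean of probe sets it was -0.23 with 3 genes under 0.05, and with each tumour left out that count ran from 0 to 3. Th, the rate-limiting enzyme of catecholamine synthesis, read 10.77, 11.53, 11.91 and 11.77 in wild type tumours 1 to 4 and 9.33 to 11.87 (median 10.89) in deficient tumours. Deficient tumours 2, 5, 6, 7, 8 and 10 lay inside the wild type range, and the difference was -0.82 (SE 0.41). Gch1, which makes the cofactor of Th, differed by -0.73 (SE 0.34), and Dbh, which converts dopamine to noradrenaline, by -0.45 (SE 0.23), or -0.20 without wild type tumour 3. Slc18a1, a vesicular monoamine transporter, differed by -0.52 (SE 0.24), and by -0.23 over the mean of its probe sets. Of 11 transcription factors of the sympathoadrenal lineage 7 were higher and 4 lower, with a median difference of 0.01 and 1 under 0.05, higher. Mouse Mycn averaged 7.56 (SD 0.16) and 7.46 (SD 0.16), a difference of -0.10 (SE 0.10) that was -0.03 over the mean of its probe sets. Human MYCN was not analysed here.

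Cell cycle genes had slightly higher signal in deficient tumours. Of 27 mitosis and S phase genes 22 were higher, with a median of 0.14 and 6 under 0.05. It was 0.03 without wild type tumour 3, whose list mean of 9.55 was below the 9.76 to 9.80 of the other wild type tumours, and 0.09 with arrays centred on their median. Cdc25b, the phosphatase that activates CDK1, read 7.23, 7.48, 7.5 and 7.0 in wild type tumours 1 to 4 and 7.56 to 8.05 (median 7.82) in deficient tumours. The groups did not overlap, and the difference was 0.49 (SE 0.11). Gtse1, a microtubule-associated protein of mitosis, differed by 0.41 (SE 0.10), Plk1, the mitotic kinase, by 0.33 (SE 0.10), and Birc5, or survivin, by 0.23 (SE 0.09). Kif18b, a mitotic kinesin, differed by 0.46 (SE 0.12). The replication helicase genes Mcm4 and Mcm5, chosen after their values were seen, were at -0.04 (SE 0.15) and 0.03 (SE 0.13). The list of MYC targets and ribosome biogenesis had a median of -0.01 over 21 genes.

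MHC class I genes, which present peptides to T cells, were lower in all 11 members, with a median of -0.39 and none under 0.05, and this direction turned when 1 tumour was left out. Psmb8, a subunit of the immunoproteasome, read 5.32, 8.86, 5.34 and 5.66 in wild type tumours 1 to 4 and 4.71 to 6.45 (median 5.73) in deficient tumours. Without wild type tumour 2 the difference of Psmb8 went from -0.66 to 0.20, that of Psmb9 from -0.54 to 0.21, that of Psmb10 from -0.25 to 0.11 and that of H2-D1, a classical class I heavy chain, from -0.45 to 0.20. All 11 members were then higher, with a median of 0.21. The MHC class II list went likewise from a median of -0.17 to 0.85. The interferon list averaged 6.49 in wild type tumour 2 and 4.56 to 4.82 in the other wild type tumours. T and NK cell genes averaged 4.62 in that tumour and 4.0 to 4.06 in the other wild type tumours. Macrophage genes had a median of -0.05 over 18 members, and 0.15 without it.

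**Figure D4:**
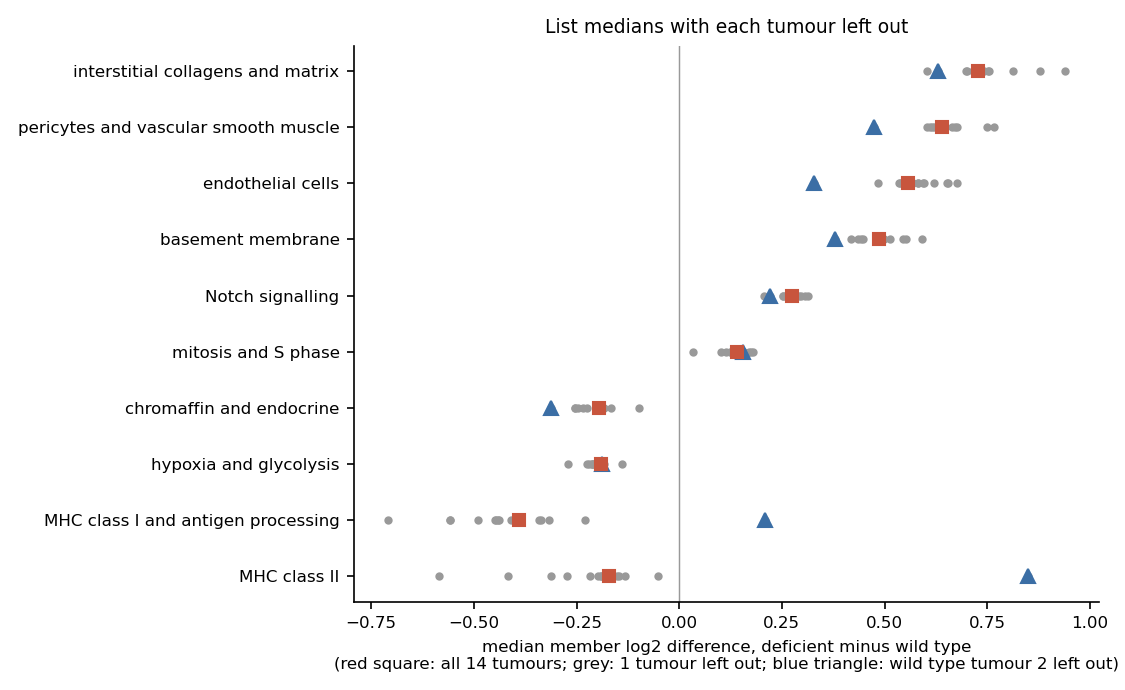
Median log2 difference of the members of 10 gene lists (x axis), over all 14 tumours (red square) and with 1 tumour left out (grey), wild type tumour 2 as a blue triangle. The hypoxia and Notch medians keep their sign (-0.27 to -0.14 and 0.21 to 0.31), and the MHC class I and II medians turn to 0.21 and 0.85 without wild type tumour 2.

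The partners of caspase-8 itself were near the median of all genes. Of 21 death receptor, caspase and necroptosis genes 12 were higher and 9 lower, with a median of 0.01 and none under 0.05. Cflar, which encodes the caspase-8 regulator FLIP, averaged 5.55 (SD 0.42) in wild type and 6.0 (SD 0.41) in deficient tumours. It differed by 0.45 (SE 0.22), by 0.27 without wild type tumour 3 and by 0.18 over the mean of its probe sets. Bid, the substrate that links caspase-8 to mitochondria, differed by -0.23 (SE 0.115), and by -0.13 with the control signal as covariate. Diablo and Cycs, both released from mitochondria in apoptosis, differed by 0.18 (SE 0.10) and 0.17 (SE 0.10), and by 0.03 and 0.10 with that covariate. Leaving out 1 wild type tumour gave 0.07 (tumour 3) or 0.26 (tumour 1) for Cycs and 0.12 (tumour 2) or 0.27 (tumour 1) for Diablo. Of 13 Bcl2 family genes 10 were higher, with a median of 0.07 and none under 0.05. Of 14 genes of epithelial-mesenchymal transition, 8 were higher, with a median of 0.12, 2 under 0.05 higher and 1 lower. The median was 0.04 without wild type tumour 1 (4 under 0.05 higher and 0 lower), 0.05 without deficient tumour 5, 0.06 without deficient tumour 4, and 0.03 with 0 under 0.05 among the 8 genes of mean signal at least 5. Snai2, a transcription factor of mesenchymal cells chosen after its values were seen, differed by 1.30 (SE 0.38), and by 0.82 over the mean of its probe sets. Fn1, fibronectin, differed by 0.64 (SE 0.35) and by 0.39 over the mean of its probe sets, Zeb2 by 0.23 (SE 0.13), Vim, vimentin, by 0.21 (SE 0.28, and 0.01 with the control signal as covariate) and Itgb1 by -0.06 (SE 0.12).

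Most marker lists of other cell types had medians nearer to 0. The erythroid list had a median of 0.05 over 8 genes, but Alas2, the first enzyme of haem synthesis in red cell precursors, read 5.50, 8.77, 6.22 and 6.03 in wild type tumours 1 to 4 and 7.23 to 11.15 (median 8.64) in deficient tumours. Wild type tumour 2 alone lay inside the deficient range, and the difference was 2.14 (SE 0.66). Tfrc, the transferrin receptor, differed by 0.26 (SE 0.08), or 0.12 over the mean of its probe sets, and Slc4a1, an anion exchanger of red cells, by 1.08 (SE 0.77) with 10.44 in deficient tumour 3. Adipocyte genes had a median of 0.37 over 12 genes with none under 0.05. That median was 0.16 without wild type tumour 2, and it turned to -0.04 without deficient tumours 1 to 7 and to -0.03 without wild type tumour 2 and deficient tumours 3 and 6. Fabp4, a fatty acid carrier, differed by 0.76 (SE 0.57), Car3 by 1.58 (SE 1.48), Ucp1, the uncoupling protein of brown fat, by 1.07 (SE 1.0, and by 0.17 with the control signal as covariate) and Adipoq, adiponectin, by 0.95 (SE 1.04). The adipocyte list mean ran from 5.46 to 6.82 in wild type and from 5.10 to 7.60 in deficient tumours, so the groups overlapped, and without wild type tumour 2 Fabp4 was at 0.31, Car3 at 0.88 and Adipoq at 0.25. Adrenal cortex, kidney, pancreas, Schwann cell, T and NK cell and neutrophil lists had medians between -0.01 and 0.03. The skeletal muscle list was at -0.13, and at 0.55 without wild type tumour 4, one of its 2 high tumours.

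Some genes of smallest p or without overlap were on no list. Galnt6, an enzyme that starts mucin-type glycosylation, read 7.04, 6.91, 7.76 and 6.74 in wild type tumours 1 to 4 and 5.95 to 6.71 (median 6.2) in deficient tumours, a difference of -0.90 (SE 0.17). Rnf128, a ubiquitin ligase, read 7.48, 7.75, 8.29 and 7.59 against 6.15 to 7.30 (median 6.72), a difference of -0.99 (SE 0.20). Neither pair of groups overlapped. Ubxn4, a membrane protein of protein degradation in the endoplasmic reticulum, differed by -0.40 (SE 0.10) and by -0.20 over the mean of its probe sets, and Ppp2r3a, a regulatory subunit of protein phosphatase 2A, by -0.48 (SE 0.15) and -0.28. Tiparp, an ADP-ribosyltransferase, differed by -0.35 (SE 0.09), Alkbh1 by -0.26 (SE 0.07), Mettl5 by -0.36 (SE 0.13) and Thyn1 by -0.30 (SE 0.10), again with no overlap. Over the mean of probe sets Tiparp was at -0.54 and Thyn1 at -0.18. Hccs, which attaches haem to cytochrome c, differed by -0.53 (SE 0.12), Ptgis, the prostacyclin synthase, by -0.69 (SE 0.18), and C2cd4b by -0.76 (SE 0.20). On the higher side, Sh3pxd2a, the podosome scaffold TKS5, read 6.82, 6.76, 6.76 and 7.22 in wild type tumours 1 to 4 and 7.29 to 8.15 (median 7.49) in deficient tumours. Its difference was 0.64 (SE 0.13), and 0.34 over the mean of its probe sets. Also without overlap were Pmepa1, a feedback inhibitor of TGF-beta signalling, at 0.61 (SE 0.23) and 0.32 with the control signal as covariate, Tgfb1i1, or HIC-5, a focal adhesion protein, at 0.39 (SE 0.13), Alg8, a glycosyltransferase, at 0.54 (SE 0.16), Srpk1, a splicing factor kinase, at 0.33 (SE 0.07), Ccm2, a scaffold mutated in cerebral cavernous malformation, at 0.33 (SE 0.08), Zswim3 at 0.36 (SE 0.09) and Mepce at 0.26 (SE 0.07). Apbb2 differed by 0.52 (SE 0.12), and by 0.32 with the control signal as covariate.

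The genotype difference was set beside that of the tumours numbered below 100, which share no sample with it. No gene passed an adjusted p of 0.05 for the difference between the 2 genotype differences (0% called, lowest limma adjusted p 0.921). Without adjustment 933 (5.13%) were under 0.05. Of the 1381 genes with an unadjusted p under 0.05 here, 536 (38.8%) had the same sign there, and of all 18193 genes 8285 (45.5%) did. Endothelial genes were higher in both, with medians of 0.56 here and 0.16 there. Medians had opposite signs for pericytes (0.64 and -0.25), basement membrane (0.49 and -0.07), interstitial matrix (0.73 and -0.20), hypoxia (-0.19 and 0.06) and chromaffin genes (-0.20 and 0.08). Of pericyte genes 7 of 17, of interstitial matrix genes 6 of 23 and of basement membrane genes 5 of 15 had an unadjusted p under 0.05 for this contrast on the side of a higher value here, where 3.23% of all genes did. Of hypoxia genes 6 of 31 did so on the lower side, where 1.9% of all genes did. Npy differed by -1.92 here and 0.76 there (contrast -2.69), Adm by -1.42 and 0.43 (contrast -1.85), and Col18a1 by 1.08 and -0.20 (contrast 1.29). Nts, chosen after its values were seen, differed by -1.60 here and 1.39 there. The genes of smallest p for the contrast were Tinf2, a shelterin protein of telomeres, at 0.39 here (0.18 over the mean of its probe sets) and -0.23 there, Ccm2 at 0.33 and -0.14, Sh3pxd2a at 0.64 and 0.00, Slc50a1, a sugar transporter, at 0.18 (0.05 or 0.30 with wild type tumour 1 or 2 left out, respectively) and -0.44, and Amdhd2 at 0.30 and -0.27. On the lower side they were Ubxn4 at -0.40 and 0.19, Ppp2r3a at -0.48 and 0.30, Nt5c2, a nucleotidase, at -0.43 (-0.21 over the mean of its probe sets) and 0.26, Srpk2 at -0.24 and 0.17, and Zbtb25 at -0.33 and 0.20 (-0.17 here with the control signal as covariate).

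**Figure D5:**
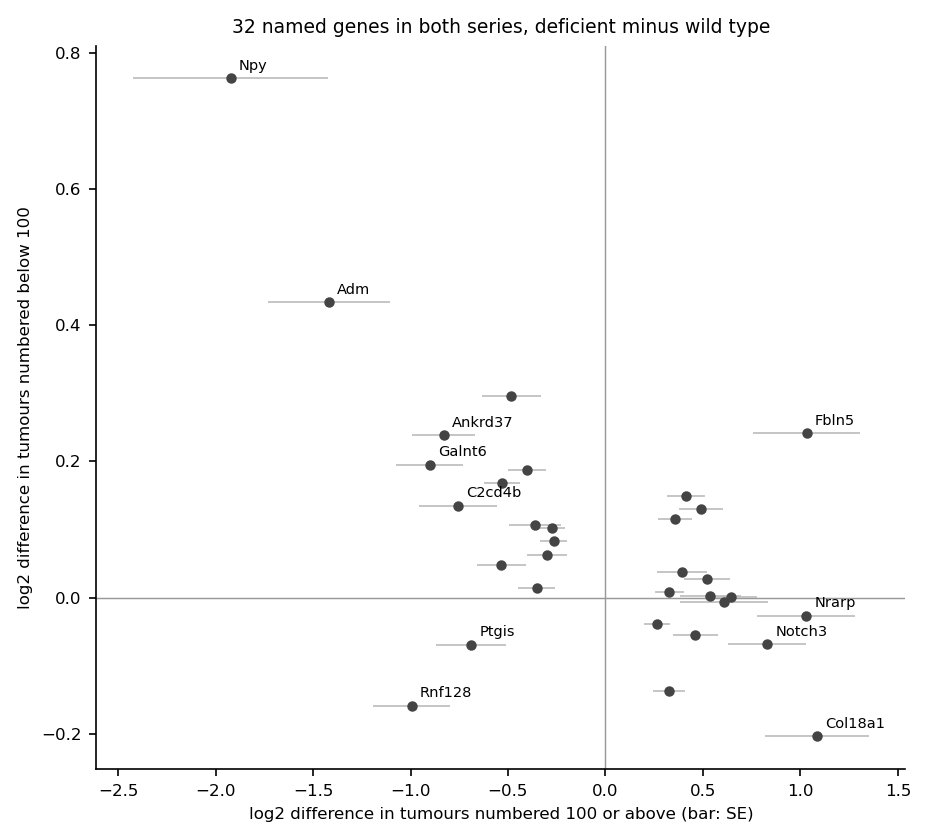
Log2 difference of deficient minus wild type in the tumours numbered 100 or above (x axis, with SE) against that in the tumours numbered below 100 (y axis) for 32 genes named for smallest p or for groups without overlap. Npy and Adm lie at upper left (-1.92 and 0.76, -1.42 and 0.43), and Fbln5 is higher in both (1.03 and 0.24).

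Deficient tumours 1 to 7 (ttt100 to ttt107) and deficient tumours 8 to 10 (ttt115 to ttt117) were also compared with the wild type tumours on their own. With the latter 3 alone, 1 gene passed in limma: Slc1a5, the glutamine transporter ASCT2, chosen after its values were seen. It read 4.53, 4.65, 4.38 and 4.54 in wild type tumours 1 to 4, 3.78 to 4.99 in deficient tumours 1 to 7, and 6.66, 6.78 and 7.51 in deficient tumours 8, 9 and 10. The difference was 2.46 (SE 0.20, limma adjusted p = 0.0422), against 0.02 for deficient tumours 1 to 7 and 0.75 (SE 0.57) over all 10, and its adjusted p ranged from 0.0422 to 0.988 over all settings run.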

How the data were processed

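The 14 tumours and the 10 numbered below 100 were measured on Affymetrix mouse 3′ expression arrays from 100 ng of total RNA with a two-cycle protocol, per the labels' protocols. The deposited table holds log2 signals that the authors made with RMA in Partek 6.6, per the submitters' processing notes; RMA corrects background, quantile-normalizes and summarises probes, so levels compare between arrays but not between genes. Of 45101 probe sets, 64 controls were left out, 34945 had 1 gene symbol, 932 several and 9160 none, and 34741 were updated by Entrez identifier through a RefSeq table (GRCm38.p6). For each of 18193 genes (9010 with several probe sets) the probe set of highest mean signal over the 29 arrays was kept.

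Groups were compared by limma's moderated linear model (version 3.58.1, R 4.3.3), with Benjamini-Hochberg adjustment over all genes, the contrast of the genotype differences was fitted over 24 tumours in 4 groups, and 4 single measures (Casp8, both Lancl1 probe sets and the control signal) had an exact permutation test. The number of arrays limits precision. On simulated data with 200 of 18193 genes shifted, 57.2% of shifts of 0.5 and 93.6% of shifts of 1 were recovered in this design, and 22.4% and 80% for the contrast. The shifts were equal parts of 0.5, 1, 1.5 and 2, and values were drawn independently from a normal spread for each gene. The shifted genes were drawn at random from all 18193, of which 10856 had a mean signal of at least 5. Recovery was not split by signal or spread, so it may be lower for genes of wide spread. Correlated genes and outlying tumours were not simulated, so these shares may not hold for the real arrays. There, 48 genes were at least 2-fold higher and 31 at least 2-fold lower, and none was called. Members and gene lists were chosen with earlier results of these data known. Named genes had a group mean of at least 6 and were the 12 of smallest p in each direction, the 8 of largest difference without overlap, the 5 of smallest p for the contrast, Casp8, Mycn, Th, Dbh and Lancl1, and the 4 of smallest p in each list described. For 15 of the 37 lists members are named; others, such as MHC class II and skeletal muscle, are given by list values. Alternatives were other probe set rules, a signal filter, 2 scalings, other variance models, covariates and left-out tumours; 3 sets of left-out tumours were added after the data were seen. Bone marrow (5 samples, both genotypes pooled) entered the choice of probe sets and served as a level for Casp8 and the neuronal genes, but entered no comparison. Promoters came from RefSeq, and 29 of 31 hypoxia genes had one. Figures were drawn with matplotlib 3.10.9, and tables made with pandas 2.3.3 in Python 3.11.15.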

Additional observations from a re-analysis of the deposited data

Results flagged for a closer look

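Of 272 groups of tumours examined, each a list or a named gene in 1 genotype, 40 held a sample far from the others by Dixon's criterion, where chance flags about 1 in 20, or 13.6. Lists were counted along with their own members, so the flags are not independent and the 2 counts are not a test. Wild type tumour 2 was the sample in 18 of the 40, and its values were low for vessels and matrix. The endothelial list mean was 4.928 there (5.655 to 5.802 in the other wild type tumours), the tip cell list 5.976, the pericyte list 5.545 and the basement membrane list 6.23. Single genes low in it were Pdgfrb (6.5), Rgs5 (8.339), Col4a1 (8.054), Col4a2 (6.758) and Snai2 (3.549). Its values were high for the MHC class I list (8.923, others 6.291 to 6.488), the interferon list (6.488), the T and NK cell list (4.623), the erythroid list (6.117), the death receptor list (6.607), Psmb8 (8.861), Psmb9 (8.349), H2-D1 (11.94) and Slc4a1 (7.089).

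Other wild type samples stood apart singly. The skeletal muscle list was high in wild type tumour 4 (7.258) and the mitosis list low in wild type tumour 3 (9.553). Sh3pxd2a was high in tumour 4 (7.222), Ubxn4 (9.616) and Zbtb25 (6.59) low in tumour 1, and Tiparp (7.909) and the Lancl1 probe set of lower signal (7.025) high in tumour 3.

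Among deficient tumours, tumour 3 was high for the erythroid list (6.934), the immediate early list (6.84), Slc4a1 (10.44), Sh3pxd2a (8.148) and Pmepa1 (8.801), and low for Mettl5 (7.83) and Bid (7.455). The skeletal muscle list was high in tumour 4 (9.257), the heat shock list and Vegfa in tumour 7 (9.706 and 7.842), Lancl1 in tumour 5 (10.36), Tac1 in tumour 2 (4.011) and the adrenal cortex list in tumour 6 (4.865). The TGF-beta list was low in tumour 2 (5.481) and Col14a1 in tumour 10 (4.504).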

How the results depend on the processing

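No paired analysis was possible because the labels carry no replicate numbers shared between the genotypes. Of the alternatives for genes and lists, 3791 were marked as the same. For a gene this meant the same sign and the same side of the threshold. For a list it meant a median that moved by less than the pooled SD of the list mean, whatever its sign. List medians that turned, such as that of MHC class I genes, are therefore among them. No gene was called in any setting except 1, Slc1a5, without deficient tumours 1 to 7 (2.4565). The genes at an unadjusted p under 0.05 numbered 918 of 10856 tested with a mean signal of at least 5, 906 with the control signal as covariate, 672 without deficient tumours 1 to 7, 3226 over probe sets, and 1151 to 1745 with 1 tumour left out. For the contrast with the tumours numbered below 100 they numbered 585 of 10867 with the signal filter. Called genes were 0 to 1 with 1 tumour left out: without wild type tumour 1 of those below 100, Mtus2, a microtubule-associated gene chosen after its values were seen, differed by 2.62 (limma adjusted p = 1.12e-06, against up to 0.983 in other settings). Signs turned for Lancl1 (-0.465 over the mean of probe sets, -0.0352 without deficient tumours 1 to 7), Ucp1 (-0.326 without those), Itgb1 (0.0791 with the covariate, 0.0809 without those, and -0.104 to 0.0208 with 1 tumour left out), and, in an alternative added after the data were seen that left out wild type tumour 2 and deficient tumours 3 and 6, Adipoq (-0.0496), Psmb8 (0.0744), Psmb9 (0.107), Psmb10 (0.0612) and H2-D1 (0.0197). With 1 tumour left out Psmb8 ran from -0.983 to 0.198, Psmb9 from -0.805 to 0.210, Psmb10 from -0.446 to 0.1075 and H2-D1 from -0.757 to 0.1986, each highest without wild type tumour 2. Of list medians, the filter gave 0.33 for lymphatic, -0.55 for pancreas and 0.67 for erythroid genes, with fewer members, and centring gave -0.028 for adrenal cortex. The causes were not tested, and dim genes limit what low signal can show.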

Other observations

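Lists not described above had medians between -0.17 and 0.16 over the 14 tumours. TGF-beta signalling genes had a median difference of 0.16, with 12 of 14 members higher and none at an unadjusted p under 0.05. Cholesterol synthesis genes had a median of 0.11, with 10 of 12 higher and 1 under 0.05. Immediate early genes, which cells switch on within minutes of a stimulus, had a median of -0.11, with 11 of 15 lower and 2 under 0.05, and -0.09 in the tumours numbered below 100. Heat shock and unfolded protein genes had -0.17 here, with 10 of 15 lower and 1 under 0.05, and 0.21 there. Without wild type tumour 4 the heat shock median was 0.05.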
